A study of Mus musculus with 25 samples.

Results

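This account covers 9 genes, taken as a set of glucocorticoid-responsive genes (Fkbp5, Tsc22d3, Sgk1, Zbtb16, Pdk4 and Errfi1), the glucocorticoid receptor gene Nr3c1 and the metallothionein genes Mt1 and Mt2. They were chosen by symbol out of 47069 genes in the deposited expression table, and each symbol had a single entry. The samples were pituitaries of hpg/hpg mice, a line unable to make gonadotropin-releasing hormone (GnRH) because its Gnrh1 gene is deleted, and every group shared this deletion. Daily intraperitoneal doses of GnRH (1 µg) or of saline, called placebo in the sample names, were given over 10 days, and tissue was taken 1 h following the final one. The groups were 6 GnRH females (animals 6 to 11), 5 placebo females (animals 1 to 5), 8 GnRH males (animals 18 to 25) and 6 placebo males (animals 12 to 17). No age is stated. Each numbered sample is treated as 1 animal, which the labels do not state outright, so p-values measure the spread between these 25 samples. Polyadenylated RNA of whole pituitaries was sequenced, and values are the authors' regularized log2 values, on which a difference of 1 is a doubling apart from shrinkage.

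Glucocorticoids enter cells and bind the receptor encoded by Nr3c1, which leaves its chaperone complex, moves to the nucleus and binds response elements in DNA. Fkbp5 encodes an immunophilin of that chaperone complex that lowers the receptor's affinity for hormone, and Tsc22d3 encodes GILZ, a leucine zipper protein that mediates many anti-inflammatory effects of glucocorticoids. In the pituitary, glucocorticoids restrain the corticotropes, which make adrenocorticotropic hormone. Metallothioneins are small, cysteine-rich proteins that bind zinc, copper and cadmium, and their genes respond to metals through the factor MTF1 and to glucocorticoids.

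The promoter windows of the metallothionein genes are shown because these genes passed the test described next. Windows of RefSeq (GRCm38.p6), running from 250 bases before an annotated start to 50 after it, were searched on both strands. Windows were searched for 7 of the 9 genes, 15 windows in all. The metal response element was searched as TGCACNC or TGCGCNC, which 25.7% of all 32851 windows hold at least once and 1.97% at least 3 times. The window of Mt1 holds 3 matches and that of Mt2 holds 4. They are printed 5′ to 3′ on the plus strand, up to 30 bases past the start, as chr8:94178839-94179118 for Mt1 and chr8:94172368-94172647 for Mt2, with these elements in capitals.
Mt1: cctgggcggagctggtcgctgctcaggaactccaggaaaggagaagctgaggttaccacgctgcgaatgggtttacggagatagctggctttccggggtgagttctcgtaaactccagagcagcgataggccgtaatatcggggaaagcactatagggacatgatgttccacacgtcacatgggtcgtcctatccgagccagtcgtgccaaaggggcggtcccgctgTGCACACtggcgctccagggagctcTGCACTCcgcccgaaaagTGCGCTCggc
Mt2: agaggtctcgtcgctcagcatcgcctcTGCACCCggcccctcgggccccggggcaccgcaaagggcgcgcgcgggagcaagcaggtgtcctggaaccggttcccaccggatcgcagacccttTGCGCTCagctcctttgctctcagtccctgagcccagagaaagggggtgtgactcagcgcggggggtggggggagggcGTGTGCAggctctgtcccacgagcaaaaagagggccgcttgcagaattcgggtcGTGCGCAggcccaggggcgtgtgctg
The glucocorticoid response element was searched as AGAACA followed after any 3 bases by TGTTCT, which 0.00913% of all windows hold (3 windows), and in a relaxed form as GNACA followed after any 3 bases by TGTNC, which 0.475% hold. Among these genes the full form was found once, in 1 of the 6 windows of Sgk1, between bases -189 and -175 from that start. It is shown because no other window of the set held the full form. The window is chr10:21993640-21993919 on the plus strand, with the element in capitals.
Sgk1: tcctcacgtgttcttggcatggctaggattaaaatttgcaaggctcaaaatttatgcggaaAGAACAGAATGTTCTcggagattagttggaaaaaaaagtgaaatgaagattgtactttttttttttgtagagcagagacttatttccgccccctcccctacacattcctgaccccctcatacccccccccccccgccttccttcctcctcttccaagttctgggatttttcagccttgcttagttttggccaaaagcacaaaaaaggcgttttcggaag
The relaxed form was found there and once in the window of Mt1, between bases -94 and -82. The cyclic AMP response element TGACGTCA, held by 1.79% of all windows, was found in 1 of the 2 windows of Errfi1, between bases -51 and -44. A single metal response element was also found in another window of Sgk1. The windows of Fkbp5, Tsc22d3 and Pdk4 held none of these motifs. Matches describe the letters of the windows only, and each full match of the glucocorticoid element is also a relaxed one.

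GnRH was compared with placebo in females, in males and as the mean of both differences, with limma across 19141 genes and Benjamini-Hochberg adjustment. All 9 genes passed the filter on low values. Mt1 and Mt2 rose with GnRH in the mean over the sexes, and no other gene of the set passed in any comparison. Thus 2 of 9 genes passed in the mean, both higher, where 1.71% of all genes passed and 1.42% passed as higher. In females 0 of 9 passed, where 0.0993% of all genes did, and in males 0 of 9, where 0.496% did. In the mean over the sexes 8 of 9 differences were positive, with a median of 0.27, against 49.4% of all genes and a median of -0.00088. Positive differences numbered 7 of 9 in females, against 50.1% of all genes, and 8 of 9 in males, against 48.5%. These counts are not of independent genes, since 13 of 36 pairs correlated within groups, Mt1 with Mt2 at r = 0.93. GnRH and placebo values overlapped for 9 of 9 genes in each sex, while 0.768% of all genes in females and 0.402% in males did not overlap. Since the RNA comes from whole tissue, a change in the number of cells that express a gene and a change in its RNA per cell cannot be told apart.

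**Figure D1:**
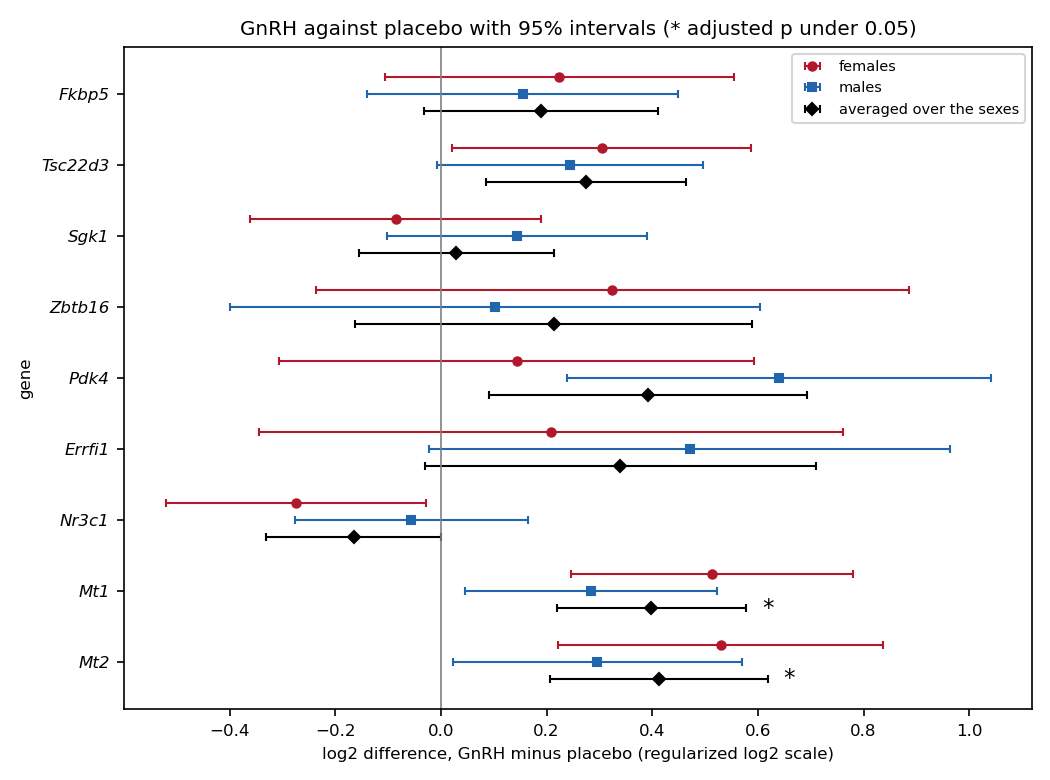
Log2 difference between GnRH and placebo (x axis, regularized log2 scale) for each of the 9 genes, in females, in males and averaged over the sexes, with 95% intervals from limma. Asterisks mark Mt1 and Mt2 in the averaged comparison, with differences of 0.40 and 0.41.

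Mt1 (ENSMUSG00000031765) lies at chr8:94179082-94180327 on the plus strand of GRCm38. Its values in GnRH females ran from 11.47 in animal 9 through a median of 11.93 to 12.15 in animal 7, whereas placebo females had 11.52, 11.50, 11.13, 11.26 and 11.47. In females 5 of 6 GnRH animals lay above every placebo animal, and animal 9 lay within the placebo values. GnRH males ran from 11.63 through a median of 11.83 to 12.05, and placebo males from 11.21 through 11.41 to 12.12. Here the groups overlapped, since placebo animal 15 (12.12) was above all GnRH males and placebo animal 16 had 11.81. In all, 14 of 14 GnRH animals were above the placebo mean of their own sex. The mean was 11.89 ± 0.24 (SD, n = 6) in GnRH females and 11.38 ± 0.17 (SD, n = 5) in placebo females, a difference of 0.51 (SE 0.13, limma adjusted p = 0.135). It was 11.82 ± 0.14 (SD, n = 8) in GnRH males and 11.53 ± 0.36 (SD, n = 6) in placebo males, a difference of 0.28 (SE 0.12, adjusted p = 0.582). The averaged difference was 0.40 (SE 0.09, limma adjusted p = 0.0122), or 1.32-fold on this scale. Tested on its own by exact permutation (two-sided), Mt1 gave p = 0.00082 for the averaged difference, p = 0.00866 in females and p = 0.0613 in males.

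Mt2 (ENSMUSG00000031762) lies upstream of Mt1 on the same strand, at chr8:94172664-94173568. GnRH females ran from 10.60 in animal 9 through a median of 11.41 to 11.63, and placebo females had 10.92, 10.98, 10.43, 10.63 and 10.91. Again 5 of 6 GnRH females were above every placebo female and animal 9 was not. GnRH males ran from 10.95 through 11.26 to 11.36, and placebo males from 10.57 through 10.85 to 11.46, with placebo animal 15 highest. Of the GnRH animals, 13 of 14 exceeded the placebo mean of their sex. The difference was 0.53 (SE 0.15, limma adjusted p = 0.205) in females, 0.30 (SE 0.13, adjusted p = 0.689) in males and 0.41 (SE 0.10, adjusted p = 0.0267) in the mean, or 1.33-fold. The exact permutation test of Mt2 alone gave p = 0.00247 for the averaged difference. The call of Mt2 rested on a narrow margin, since it was lost without placebo females 3 (adjusted p = 0.0763) or 4 (0.0583), without GnRH females 6 (0.0515), 7 (0.0556) or 11 (0.051), and without placebo males 13 (0.0572) or 14 (0.0584). It was also lost without GnRH males 18 and 21 together (adjusted p = 0.0655), whereas Mt1 was called whichever animal was left out, with limma adjusted p between 0.000763 and 0.0344. An annotated antisense gene, Gm45774, overlaps Mt2, and whether counting used strand is not stated. The longest run shared by transcripts of Mt1 and Mt2 was 20 bases.

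**Figure D2:**
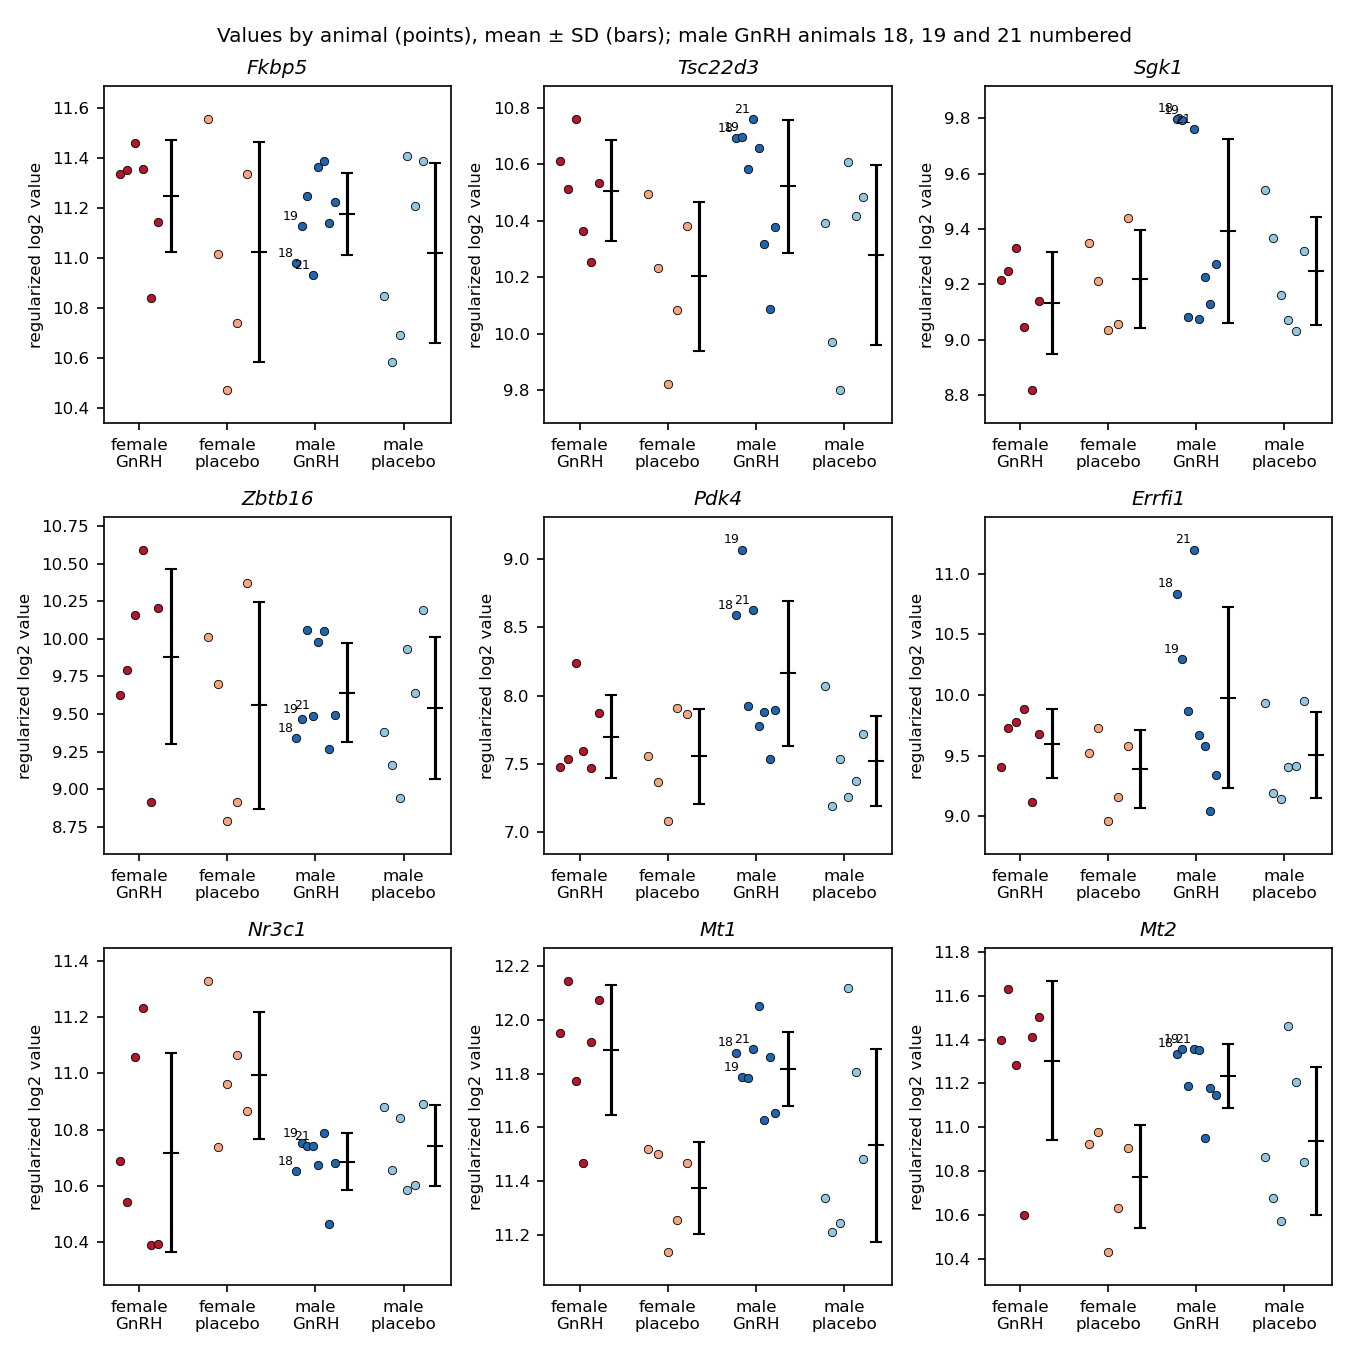
Regularized log2 value (y axis) of each gene in every animal, by sex and treatment, with the group mean ± SD beside the points. Mt1 and Mt2 sat higher in GnRH than in placebo females apart from animal 9, and GnRH males 18, 19 and 21, which are numbered, stood at the top of the Sgk1, Pdk4 and Errfi1 panels.

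Fkbp5, Tsc22d3 and Zbtb16 had positive differences in both sexes, and none passed the test. Fkbp5 (chr17:28399094-28517527, minus strand) ran from 10.84 through a median of 11.34 to 11.46 in GnRH females, against 11.56, 11.01, 10.47, 10.74 and 11.33 in placebo females. It ran from 10.93 through 11.18 to 11.39 in GnRH males and from 10.58 through 11.03 to 11.41 in placebo males. The lowest values belonged to placebo animals 3, 13 and 14, the highest to placebo animal 1, and the groups overlapped in both sexes. The spread was wider with placebo, with an SD of 0.22 in GnRH females against 0.44 in placebo females and of 0.16 in GnRH males against 0.36 in placebo males, a contrast that was not tested. The difference was 0.22 (SE 0.16, limma adjusted p = 0.667) in females, 0.16 (SE 0.14, adjusted p = 0.999) in males and 0.19 in the mean (95% interval -0.03 to 0.41). Single animals moved these values: the female difference was 0.086 without placebo female 3 and 0.36 without placebo female 1, and the male difference 0.068 without placebo male 13 and 0.089 without placebo male 14.

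Tsc22d3 (chrX:140539528-140600659, minus strand) ran from 10.25 through 10.52 to 10.76 in GnRH females, and placebo females had 10.50, 10.23, 9.82, 10.08 and 10.38. GnRH males ran from 10.09 through 10.62 to 10.76 and placebo males from 9.80 through 10.40 to 10.61. Of the GnRH animals 13 of 14 were above the placebo mean of their sex, and 4 of 6 females and 4 of 8 males were above every placebo animal of their sex. Those 4 males were animals 18, 19, 21 and 22, at 10.69, 10.70, 10.76 and 10.66. Animals 3 and 14, low in Fkbp5, were also the lowest placebo female and male here. The averaged difference was 0.27 (SE 0.09, limma adjusted p = 0.165), with 0.30 in females (adjusted p = 0.491) and 0.24 in males (adjusted p = 0.795), which was 0.15 without placebo male 14. Taken alone, the averaged difference had an exact permutation p = 0.0106, which is not adjusted for the genes examined. It passed when libraries were weighted by their scatter around the group means, estimated from these data (0.33, limma adjusted p = 0.0353). Under those weights 942 of all genes passed in the mean, against 327 without them.

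Zbtb16 encodes PLZF, a zinc finger transcription factor (chr9:48654297-48836222, minus strand). It had the widest spread of the 3, from 8.92 in animal 10 to 10.59 in animal 9 among GnRH females, whose median was 9.98. Placebo females had 10.01, 9.70, 8.79, 8.91 and 10.37. GnRH males ran from 9.27 through 9.49 to 10.06 and placebo males from 8.94 through 9.51 to 10.19. Apart from animal 9, all GnRH values lay within the placebo values of their sex. Differences were 0.32 (SE 0.27, limma adjusted p = 0.72) in females and 0.10 (SE 0.24, adjusted p = 0.999) in males, and the averaged difference of 0.21 had a 95% interval of -0.16 to 0.59. The female difference ran from 0.13 (without placebo female 3) to 0.53 (without placebo female 5) when 1 animal was left out, and the male difference from -0.017 (without placebo male 14) to 0.23 (without placebo male 17).

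Sgk1, Pdk4 and Errfi1 were set apart by 3 GnRH males. Sgk1 encodes a kinase that regulates sodium transport and cell survival (chr10:21882184-21999903, plus strand). GnRH males 18, 19 and 21 had 9.80, 9.79 and 9.76, and the other 5 GnRH males lay between 9.07 and 9.27. Placebo males ran from 9.03 through 9.24 to 9.54, below those 3 animals. GnRH females ran from 8.82 through 9.18 to 9.33, and placebo females had 9.35, 9.21, 9.03, 9.05 and 9.44. The difference was 0.14 (SE 0.12, limma adjusted p = 0.999) in males and -0.09 (SE 0.13, adjusted p = 0.858) in females. Without animals 18, 19 and 21, left out after their values were seen, it was -0.09 in males. When 1 animal was left out it ran from 0.086 (without animal 18) to 0.20 in males and from -0.13 to -0.022 (without GnRH female 10) in females.

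Pdk4 encodes a kinase that inhibits pyruvate dehydrogenase and so spares glucose (chr6:5483351-5496309, minus strand). The same GnRH males 18, 19 and 21 had 8.59, 9.07 and 8.63, and the others lay between 7.54 and 7.92. Placebo males ran from 7.19 through 7.45 to 8.07. In females the groups overlapped, with 7.47 through 7.57 to 8.24 in GnRH females and 7.56, 7.36, 7.08, 7.91 and 7.86 in placebo females. Pdk4 had the largest male difference of the 9 genes, 0.64 (SE 0.20, limma adjusted p = 0.209), against 0.14 (SE 0.22, adjusted p = 0.853) in females. The difference between these effects, 0.50, did not pass (limma adjusted p = 0.999, 95% interval -0.11 to 1.10). The exact permutation test of Pdk4 alone in males gave p = 0.0226, which is 1 of 18 such tests and not adjusted for them. Without animals 18, 19 and 21 the male difference was 0.28, and the female difference was 0.024 without placebo female 3.

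Errfi1 encodes MIG6, a feedback inhibitor of the epidermal growth factor receptor (chr4:150853919-150868892, plus strand, overlapped by the antisense gene 1700045H11Rik). GnRH males 18, 19 and 21 had 10.83, 10.30 and 11.20, and the others lay between 9.05 and 9.86. Placebo males ran from 9.14 through 9.41 to 9.95. GnRH females ran from 9.12 through 9.70 to 9.89 and placebo females had 9.52, 9.73, 8.96, 9.16 and 9.58. Hence GnRH animals exceeded all placebo animals of their sex in 3 of 8 males and 2 of 6 females. Differences were 0.47 (SE 0.24, limma adjusted p = 0.804) in males and 0.21 (SE 0.27, adjusted p = 0.825) in females, and without animals 18, 19 and 21 the male difference was -0.0079. Without animal 21 alone it was 0.30, and without placebo female 3 the female difference was 0.10.

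The 3 animals did not share a high level of the immediate early genes, which respond within minutes to receptor signalling. Atf3, the factor named in the title of the series, was at 10.71 and 10.55 in animals 18 and 21, the highest of the GnRH males, and at 6.50 in animal 19, the lowest. The mean over 15 immediate early genes was 11.05 and 11.09 in animals 18 and 21 and 9.66 in animal 19, with the other GnRH males between 9.64 and 10.33. After removal of group means, Errfi1 correlated with this mean at r = 0.65 over 25 animals (rho = 0.50, permutation adjusted p = 0.0643 and 0.12), and at 0.34 without the 2 most extreme animals. Atf3 itself rose by 2.08 in the averaged comparison (limma adjusted p = 0.000638).

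Nr3c1 (ENSMUSG00000024431), the receptor gene, did not pass. GnRH females ran from 10.39 through 10.61 to 11.23 and placebo females had 11.33, 10.74, 10.96, 11.07 and 10.87. GnRH males ran from 10.46 through 10.71 to 10.79 and placebo males from 10.58 through 10.75 to 10.89. In females 4 of 6 GnRH animals were below every placebo animal, while animals 8 and 9 (11.06 and 11.23) were among the higher ones. The difference was -0.27 (SE 0.12, limma adjusted p = 0.47) in females, -0.06 (SE 0.11, adjusted p = 0.999) in males and -0.17 (SE 0.08, adjusted p = 0.417) in the mean. When 1 animal was left out the female difference ran from -0.38 (without GnRH female 9) to -0.19 (without placebo female 1), and the male difference from -0.088 to -0.024. With libraries weighted by their scatter around the group means, the averaged difference was -0.23 and passed (limma adjusted p = 0.0451). Those weights raised the number of all genes called in the mean from 327 to 942.

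A property of the libraries moved with Nr3c1 and the metallothioneins. For each library, a length measure was taken as the mean deviation (log2) of the 1905 genes with the longest exons in total minus that of the 1907 with the shortest. Across 25 animals, after removal of group means, Nr3c1 correlated with it at r = 0.88 (rho = 0.89, permutation adjusted p = 0.00027 for each; the unadjusted p of 1e-05 is the smallest these permutations can give). Mt1 correlated at r = -0.65 (adjusted p = 0.0297; rho = -0.61, adjusted p = 0.0574) and Mt2 at r = -0.64 (adjusted p = 0.0354; rho = -0.54, adjusted p = 0.0838), over 27 relations. Without the 2 most extreme libraries r was 0.82, -0.62 and -0.52 for Nr3c1, Mt1 and Mt2. Over all tested genes, the middle 80% of such r values ran from -0.63 to 0.68. Pdk4 had r = 0.46 with the measure (rho = 0.52, permutation adjusted p = 0.0643 and 0.0574), and 0.56 without the 2 most extreme libraries. Sgk1, Zbtb16 and Errfi1 had r = 0.38, 0.37 and 0.37 (permutation adjusted p = 0.158, 0.256 and 0.152). Fkbp5 and Tsc22d3 had 0.15 and 0.08. The part of the measure in the correlations of Sgk1, Pdk4 and Errfi1 with each other was not tested. The measure ran from -0.18 to 0.18 in GnRH females and -0.05 to 0.11 in placebo females, and from -0.10 to 0.08 in GnRH males and -0.11 to 0.11 in placebo males. Its median was lower with GnRH in both sexes, at -0.076 against 0.063 in females and -0.015 against 0.029 in males. That contrast was not tested. With the length measure as a covariate, Mt1 differed by 0.33 (limma adjusted p = 0.00839) and Mt2 by 0.33 (adjusted p = 0.0221) in the averaged comparison.

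Males and females were compared within each treatment. None of the 9 genes passed (limma adjusted p from 0.83 to 1), where 0.0522% of all genes passed with GnRH and 0.047% with placebo. The largest male-minus-female difference with GnRH was 0.46 (SE 0.20), for Pdk4, and with placebo -0.25 (SE 0.12), for Nr3c1. The effect of GnRH did not differ between males and females for any of the 9 genes at the threshold, where 0% of all genes passed, and 529 of 19141 genes had an unadjusted p under 0.05 in that limma test. Mt1 and Mt2 had male-minus-female differences in effect of -0.23 each, with 95% intervals of -0.59 to 0.13 and -0.64 to 0.18.

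Correlations between the 9 genes were computed over the deviations of the 25 animals from their group means, for 36 pairs, with 100000 permutations of animals within groups. Of these, 13 pairs passed, 11 of them positive. The share of pairs that would pass among all genes was not computed, so the count is not read as particular to this set. The highest was Mt1 with Mt2 (r = 0.93, rho = 0.94, permutation adjusted p = 0.00036 and 0.00018), which was 0.92 without the 2 most extreme animals. Within the 14 GnRH animals it was 0.91 and within the 11 placebo animals 0.97. In both genes animal 15 was furthest above its group mean and animal 9 furthest below.

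**Figure D3:**
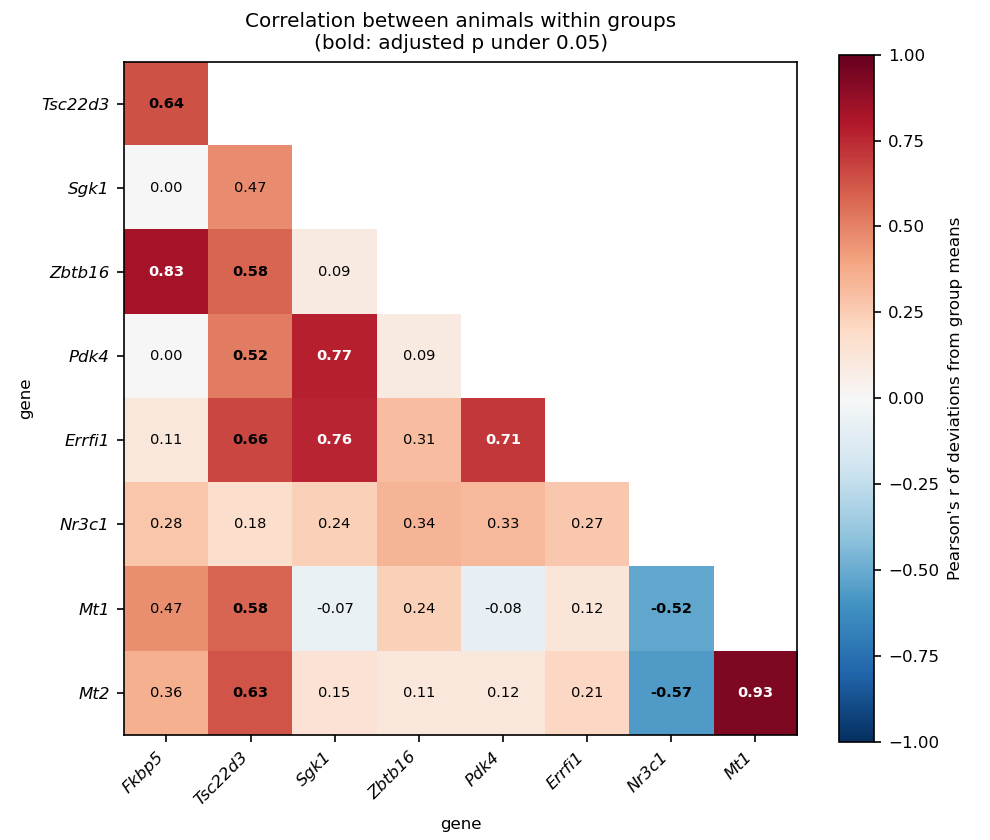
Pearson's r between deviations of 25 animals from their group means, for each pair of the 9 genes. Values in bold passed the adjusted threshold (13 of 36 pairs); the strongest was Mt1 with Mt2 (0.93).

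Fkbp5 and Zbtb16 varied together (r = 0.83, rho = 0.85, permutation adjusted p = 0.0009 and 0.00018; 0.81 without the 2 most extreme animals), with r = 0.73 in GnRH and 0.92 in placebo animals. Fkbp5 and Tsc22d3 had r = 0.64 (rho = 0.61, permutation adjusted p = 0.0139 and 0.0271; 0.53 without the 2 extreme animals). This pair was at 0.09 in the 14 GnRH animals and at 0.91 in the 11 placebo animals, and the contrast between these values was not tested. Placebo animals 3, 4, 13 and 14 were low in Fkbp5, Zbtb16 and Tsc22d3 alike, and animals 1, 5, 15 and 17 were high. Tsc22d3 and Zbtb16 had r = 0.58 (rho = 0.54, permutation adjusted p = 0.0157 and 0.0372; 0.52 without the 2 extreme animals), with 0.21 in GnRH and 0.86 in placebo animals. In placebo animals Fkbp5 also passed on r with Mt1 (r = 0.77, permutation adjusted p = 0.0266) and Mt2 (r = 0.77, adjusted p = 0.0424). By rank the pair with Mt1 passed (rho = 0.84, permutation adjusted p = 0.015) and the pair with Mt2 did not (rho = 0.76, adjusted p = 0.0543). Over all animals neither pair passed (r = 0.47 and 0.36, permutation adjusted p = 0.105 and 0.228). In GnRH animals these pairs were negative, at r = -0.24 and -0.34 (permutation adjusted p = 0.624 and 0.53). The contrast with placebo animals was not tested.

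Sgk1, Pdk4 and Errfi1 also correlated with each other. The r of Sgk1 was 0.77 with Pdk4 and 0.76 with Errfi1, and Pdk4 with Errfi1 had 0.71 (rho 0.74, 0.72 and 0.77; permutation adjusted p for r of 0.00264, 0.00396 and 0.00658). Without the 2 most extreme animals these were 0.70, 0.73 and 0.73. GnRH males 18, 19 and 21 stood above the other GnRH males in all 3 genes. Each of the 3 pairs passed on r whichever single animal was left out (r of at least 0.65). On r each also passed without animals 18 and 21 (r = 0.73, 0.64 and 0.68, permutation adjusted p = 0.011, 0.016 and 0.0106). There rho was 0.56, 0.52 and 0.64 (permutation adjusted p = 0.0334, 0.0542 and 0.0232), so Sgk1 with Errfi1 did not pass by rank. Without animals 18, 19 and 21, a set chosen for its values in these genes, r was 0.53 (permutation adjusted p = 0.0814), 0.49 (0.0818) and 0.55 (0.0487). Within placebo animals r was 0.55, 0.63 and 0.56, none past the threshold, and within GnRH animals it was 0.86, 0.80 and 0.76, all past it. Which pairs passed depended on the animals included. Errfi1 with Zbtb16 had r = 0.31 over all animals (permutation adjusted p = 0.152), 0.64 without animals 18 and 21 (adjusted p = 0.00906) and 0.80 without animals 18, 19 and 21 (adjusted p = 0.00144). Errfi1 with Fkbp5 had 0.11 over all animals (permutation adjusted p = 0.67) and 0.60 without animals 18, 19 and 21 (adjusted p = 0.0356). In placebo animals Errfi1 had r = 0.71 with Zbtb16 and 0.60 with Fkbp5 (permutation adjusted p = 0.0752 and 0.179). Over all animals Tsc22d3 also correlated with 4 genes outside the Fkbp5 and Zbtb16 pairs, at 0.66 with Errfi1, 0.63 with Mt2, 0.58 with Mt1 and 0.52 with Pdk4. Its rho was 0.70, 0.59, 0.54 and 0.53 with these genes, and r without the 2 most extreme animals was 0.59, 0.62, 0.62 and 0.50, with permutation adjusted p for r of 0.00342, 0.00658, 0.026 and 0.0318. The pair with Pdk4 was lost without animals 18, 19 and 21 (r = 0.42, permutation adjusted p = 0.173) and without any 1 of animals 3, 8, 13, 18, 21 or 24 (r down to 0.44, permutation adjusted p up to 0.0961). The pair with Mt1 was lost without animal 3 (permutation adjusted p = 0.0732). In GnRH animals Tsc22d3 had r = 0.27 with Mt1 and 0.39 with Mt2 (permutation adjusted p = 0.544 and 0.349). In placebo animals these pairs were at 0.78 and 0.84 (adjusted p = 0.0549 and 0.0287). With Errfi1 and Pdk4 Tsc22d3 had 0.74 and 0.72 in GnRH animals, and 0.71 and 0.32 in placebo animals. The contrasts between these values were not tested. Fkbp5 and Sgk1, by contrast, had r = 0.0019 (rho = -0.01, permutation adjusted p = 0.992 for each; r = -0.04 without the 2 extreme animals).

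**Figure D4:**
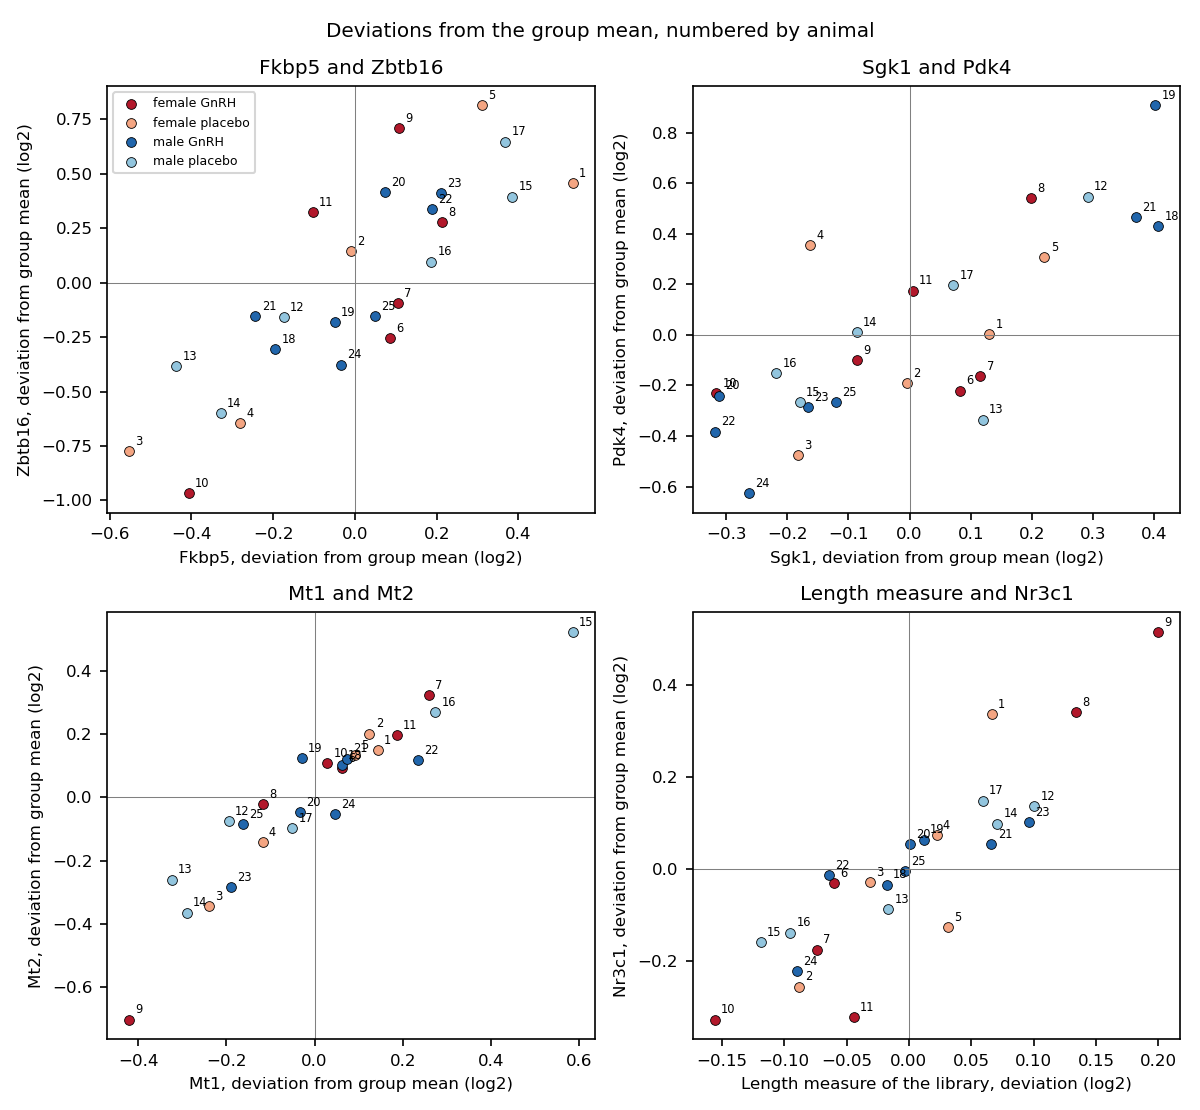
Deviations of each animal from its group mean (log2), numbered by animal, for Fkbp5 with Zbtb16, Sgk1 with Pdk4, Mt1 with Mt2 and the length measure of the library with Nr3c1. GnRH female 10 and placebo animals 3, 4, 13 and 14 fall at the lower left for Fkbp5 and Zbtb16, and GnRH males 18, 19 and 21 at the upper right for Sgk1 and Pdk4.

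Nr3c1 correlated negatively with Mt1 (r = -0.52, rho = -0.55, permutation adjusted p = 0.0313 and 0.0372) and Mt2 (r = -0.57, rho = -0.55, adjusted p = 0.0318 and 0.0372). Without the 2 most extreme animals r was -0.38 and -0.40. Within the 14 GnRH animals r was -0.75 and -0.72 (permutation adjusted p = 0.045 and 0.0655), and rho -0.64 and -0.46 (adjusted p = 0.106 and 0.329). Within the 11 placebo animals r was -0.34 and -0.36 (permutation adjusted p = 0.444 for each). The contrast between GnRH and placebo animals was not tested. Without GnRH female 9, which among the GnRH animals was lowest in both metallothioneins and highest in Nr3c1, r was -0.38 (permutation adjusted p = 0.106) and -0.34 (adjusted p = 0.171), and neither passed. The pair with Mt1 was also lost without animal 8, 11 or 15, and the pair with Mt2 without animal 2, 8, 11 or 15. All 3 genes moved with the length measure given above, and its part in these pairs was not tested.

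For each gene, the named genes with the highest r over the same 25 animals were listed as a description. Fkbp5 was closest to Hif3a (0.90), Sec14l4 (0.88) and Doc2b (0.86). Among the genes most like Zbtb16 were Doc2b (0.88) and Fkbp5 (0.83). Tsc22d3 was closest to Alox12e (0.93), Glul (0.89) and Coq10b (0.87). Sgk1 was closest to Klf6 (0.83), Arl4d (0.83) and Tmbim1 (0.78), Pdk4 to Sinhcaf (0.83), Cpt1a (0.82) and Sptlc1 (0.81), and Errfi1 to Fosl2 (0.92), Trib1 (0.89) and Elmsan1 (0.86). Mt1 and Mt2 were each closest to the other, and Arrdc2 followed at 0.87 for Mt1 and 0.82 for Mt2. Mt1 also had Ptges at 0.81 and Mt2 had Acaa2 at 0.84. Hif3a, Glul and Arrdc2 were also on the list of glucocorticoid-induced genes described next. Nr3c1 was closest to Gfpt1 (0.93), Usp9x (0.92) and D5Ertd579e (0.92).

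Other genes that glucocorticoids are known to induce were examined as a list of 18. In the averaged comparison 1 of 18 rose, 0 fell and 17 were positive, with a median difference of 0.13. Over all genes 1.71% passed, 1.42% passed as higher and 49.4% were positive, shares that also stand beside the lists and markers that follow. The 1 that rose was Cdkn1a, an inhibitor of cyclin-dependent kinases, with 8.60 ± 0.29 (SD, n = 6) in GnRH females and 8.08 ± 0.19 (SD, n = 5) in placebo females, and 8.34 ± 0.34 (SD, n = 8) in GnRH males and 7.86 ± 0.13 (SD, n = 6) in placebo males. Its averaged difference was 0.50 (SE 0.10, limma adjusted p = 0.00388). Per1, a clock gene, differed by 0.49 (SE 0.15, limma adjusted p = 0.111) and Rhob, a small GTPase, by 0.15 (SE 0.04, limma adjusted p = 0.0688). In females and in males 0 of 18 passed, against 0.0993% and 0.496% of all genes. In each sex 14 were positive, against 50.1% and 48.5% of all genes.

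The receptor machinery (chaperones, coregulators and the enzymes that interconvert active and inactive glucocorticoid) had 0 of 15 genes past the test in the averaged comparison, 3 of them positive, and a median of -0.02. Hspa8, a constitutive chaperone, had the smallest p, with a difference of 0.21 (SE 0.06, limma adjusted p = 0.0593). Of the zinc and metal genes 12 of 13 could be tested, Mt4 being listed at 0, and 1 rose. It was Gclc, a subunit of the enzyme that limits glutathione synthesis, with 0.14 (SE 0.03, limma adjusted p = 0.022), lost without GnRH males 18 and 21 (adjusted p = 0.0589) and without 18, 19 and 21 (0.0758). Mt3, the third metallothionein tested, differed by 0.27 (SE 0.10, limma adjusted p = 0.23), and the zinc importer Slc39a14 by 0.25 (SE 0.10, limma adjusted p = 0.276). Of 13 tested relatives and partners of the kinases, of Tsc22d3 and of Errfi1, 0 passed, with a median of 0.00030. Among 15 immediate early genes 3 rose (Atf3, Fosb and Nr4a3), 0 fell and 14 were positive.

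**Figure D5:**
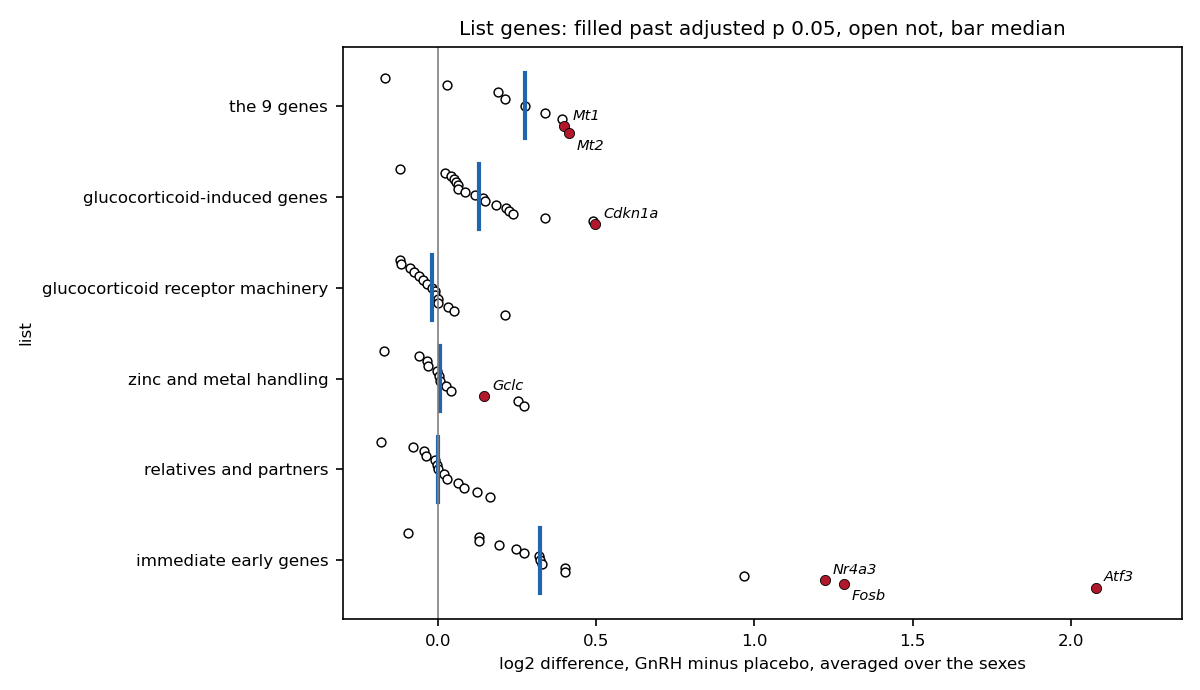
Averaged log2 difference between GnRH and placebo (x axis) for the 9 genes and for each gene of 5 further lists (rows); filled points passed the adjusted threshold and bars mark the median. The median was 0.27 for the 9 genes, 0.13 for other glucocorticoid-induced genes and 0.01 for zinc and metal genes.

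Markers of pituitary cell types were read beside these results. Markers of somatotropes, lactotropes, corticotropes, melanotropes, thyrotropes and gonadotropes were detected in all 4 groups. In the averaged comparison the gonadotrope genes Fshb, Lhb and Gnrhr rose and Nr5a1 fell. The mean of the 5 gonadotrope markers was 11.27 to 11.60 in GnRH females against 10.49 to 10.93 in placebo females. In males it was 11.18 to 11.70 with GnRH against 10.45 to 10.86 with placebo. Fshb weighed most in that mean, with an averaged difference of 2.42. The others had 0.66 (Gnrhr), 0.41 (Cga), 0.38 (Lhb) and -0.38 (Nr5a1). Of 6 corticotrope markers Neurod1 rose, by 0.39 (SE 0.07, limma adjusted p = 0.00185), and 5 were positive. The corticotrope mean was 10.33 to 10.52 in GnRH females against 10.18 to 10.39 in placebo females, and 10.37 to 10.55 in GnRH males against 10.17 to 10.49 in placebo males. Of 5 endothelial markers Emcn and Plvap rose, by 0.25 and 0.18 (limma adjusted p = 0.00289 and 0.0238), and all 5 were positive. The call of Plvap was lost without placebo female 1 or GnRH female 6 (adjusted p up to 0.0602), and that of Nr5a1 without placebo female 4 (adjusted p = 0.0571). For melanotrope, somatotrope, lactotrope, thyrotrope, stem and folliculostellate, posterior lobe, pericyte and fibroblast, macrophage and blood markers, 0 passed. Of the adrenal cortex genes Star rose by 0.28 (SE 0.07, limma adjusted p = 0.02), and Cyp11a1, Cyp11b1 and Cyp21a1 had means of 1.88, 0 and -1.19, under the filter of 3. The part of these cell types in the metallothionein result was not tested.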

How the data were processed

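Pituitary RNA of 25 animals was sequenced. Per the submitters' processing notes bcl2fastq, STAR and featureCounts were used with mm10; versions, annotation and strand setting are not stated. The deposited table holds the authors' regularized log2 values per gene, so depth is unknown and low genes are shrunk towards their mean. RNA integrity numbers were all above 8.2, with a median of 9.1, per the labels. Libraries correlated at 0.992 to 0.998. Groups came from the sample labels. Genes with a mean of at least 3 (19141 of 47069) entered a limma 3.58.1 model (R 4.3.3) with 1 mean per group, a variance trend and 21 residual degrees of freedom, all p-values two-sided with Benjamini-Hochberg adjustment and a threshold of 0.05. Single genes were tested by exact permutation, not adjusted for the genes examined. Correlations were tested with 100000 permutations within groups (10000 where 1 animal was left out). Both were run in Python 3.11.15 with scipy 1.17.1. The fitting was tested on simulated data. Genes, lists, markers and the animals left out were chosen with earlier results of these data known. Named genes were the 9 genes, the 3 most like each (1 of which is not reported here), and from each list those past the threshold and those with the smallest p. Gene positions are GENCODE vM21 (GRCm38); sequences are RefSeq's (GRCm38.p6). Alternatives covered the filter, scaling, variance model, library weights, sexes fitted apart, animals left out and, added after the data were seen, the length covariate and leaving out animals 18, 19 and 21.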

Additional observations from a re-analysis of the deposited data

Results flagged for a closer look

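Within groups of 4 to 10 animals, the lowest and highest values were checked for a gap to the nearest animal that is large for the range of the group (Dixon's test, 95% level), over 36 combinations of gene and group. Chance gives about 1 in 20, and 2 were found. Mt2 in GnRH female 9 was 10.6, below the other 5 GnRH females, which had 11.28 to 11.63. Without this animal the female difference of Mt2 was 0.67 (limma adjusted p = 0.0284). Nr3c1 in GnRH male 24 was 10.46, below the other 7 GnRH males, which had 10.65 to 10.79.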

How the results depend on the processing

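Mt1 passed in the averaged comparison under every alternative run, with differences of 0.37 to 0.46 when 1 animal was left out. With no filter its adjusted p was 0.0408. Mt2 kept its direction and lost its call with no filter (limma adjusted p = 0.0807), without animals 18 and 21 (0.0655), without animals 18, 19 and 21 (0.0909) and without any 1 of the 7 animals named in the report. With library weights Mt1 passed in females (0.59, limma adjusted p = 0.023) and in males (0.39, adjusted p = 0.0378), and Mt2 in females (0.64, adjusted p = 0.026). The counts of genes called over the whole table moved most. In females 19 genes were called, and 7 with no filter, 62 with library weights, 38 with the length covariate, 32 without animals 18 and 21 and 64 without animals 18, 19 and 21; leaving out 1 animal gave 4 (animal 6) to 67 (animal 10). In males 95 were called, and 42 with no filter, 239 with library weights, 167 with the length covariate and 38 without animals 18 and 21; leaving out 1 animal gave 46 (animal 14) to 153 (animal 19). In the mean 327 were called, and 942 with library weights, with 235 to 389 when 1 animal was left out. Within GnRH 10 differed between the sexes, and 8 (animal 18) to 17 (animal 10) when 1 animal was left out. Pairs of genes past the threshold numbered 13 in all animals, 8 in GnRH animals alone and 7 in placebo animals alone, with 10 to 14 when 1 animal was left out; the smaller sets hold fewer animals. Of the 18 exact tests of 1 gene in 1 sex 4 had p under 0.05, and 2 (animal 3) to 6 (animal 15) when 1 animal was left out.

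Some differences that had not passed changed sign. The difference in effect between males and females was -0.07 for Fkbp5, and 0.040 with library weights, 0.0043 without animals 18 and 21 and 0.0288 without animals 18, 19 and 21, with -0.20 to 0.069 when 1 animal was left out. For Tsc22d3 it was -0.06, and 0.0266 with library weights, with -0.16 to 0.036 when 1 animal was left out. Without animals 18, 19 and 21 it was -0.0066 for Sgk1, against 0.23 with all animals, and -0.22 for Errfi1, against 0.26 with all animals and -0.084 without animals 18 and 21. In males without animals 18, 19 and 21 the differences of Sgk1 and Errfi1 were -0.092 and -0.0079, against 0.14 and 0.47 with all males. The averaged difference of Sgk1, 0.03 with all animals, was -0.036 without animals 18 and 21 and -0.089 without animals 18, 19 and 21, and ran from -1.85e-05 (without animal 18) to 0.061 when 1 animal was left out. The male difference of Zbtb16 ran from -0.017 (without animal 14) to 0.23 (without animal 17). The causes were not tested. No paired analysis was possible because the animals are numbered 1 to 25 and no number is shared between groups. No gene of the set had a second entry, so the choice of entry could not matter. Depth is unknown, and 5 to 8 animals a group limit what can be detected.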
